A study of Rattus norvegicus with 63 samples.

Results

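The livers of rats given piperonylbutoxide (PBO) were compared with those of the methylcellulose controls that the labels assign to it. The comparison comprised 6 of the 63 arrays of the series, the 3 with PBO titles and the 3 of control set 5. PBO was given by gastric gavage at 1200 mg/kg/d for 3 days to male Wistar Hanover rats that were 8 to 10 weeks old when they were assigned to dose groups of 5. Control set 5 received methylcellulose by the same route, and its label gives 14 days. The methods of the study describe the controls as matched to the treated groups in time and vehicle, but name carboxymethyl cellulose as the vehicle of PBO. If the label of 14 days holds, duration cannot be told apart from treatment here, and the same applies to the vehicle if it was carboxymethyl cellulose. Total RNA of frozen liver was hybridised to Affymetrix RAE230A arrays, 1 array per animal, and the 3 animals of a group were chosen after histopathology from the larger dosed group. The same control set also served diethylstilbestrol (DES, 3 days, 10 mg/kg/d) and ethionine. Phenobarbital (PB) was given for 14 days, with its own methylcellulose control set 6, and its dose is given in the text of the study's methods but not in the labels. No allele or second agent was part of any of these groups.

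PBO is a methylenedioxyphenyl compound that is added to insecticides as a synergist because it inhibits cytochrome P450 enzymes. In rodent liver, foreign compounds of this kind are sensed by the nuclear receptors CAR and PXR, which switch on P450s, conjugating enzymes and export pumps, with PB as the classical CAR activator. Electrophiles release the transcription factor NRF2 from its inhibitor KEAP1, and NRF2 then binds the antioxidant response element (ARE) in front of genes for glutathione synthesis, glutathione S-transferases and NADPH supply. The aryl hydrocarbon receptor (AHR) acts through the xenobiotic response element (XRE), and Cyp1a1 is its best known target.

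The promoters of 4 genes with large rises are shown first because each carries the ARE core TGACNNNGC, read on both strands (reverse GCNNNGTCA). They are the 250 bases before the RefSeq start of each gene on the build GRCr8, written 5′ to 3′ along the gene, and the capitals mark the core. Gsta3, an alpha-class glutathione S-transferase, lies on the plus strand at chr9:31154739-31154988 and has the core 17 to 9 bases before the start. Me1, the cytosolic malic enzyme that makes NADPH, lies on the minus strand at chr8:96540245-96540494. Gclm, the modifier subunit of the enzyme that starts glutathione synthesis, lies on the plus strand at chr2:213031885-213032134. Gpx2, a glutathione peroxidase, lies on the minus strand at chr6:101230034-101230283.
Gsta3: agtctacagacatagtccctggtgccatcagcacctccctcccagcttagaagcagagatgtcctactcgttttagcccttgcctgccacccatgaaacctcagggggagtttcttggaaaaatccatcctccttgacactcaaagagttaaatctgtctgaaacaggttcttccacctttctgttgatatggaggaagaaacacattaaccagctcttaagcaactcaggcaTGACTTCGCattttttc
Me1: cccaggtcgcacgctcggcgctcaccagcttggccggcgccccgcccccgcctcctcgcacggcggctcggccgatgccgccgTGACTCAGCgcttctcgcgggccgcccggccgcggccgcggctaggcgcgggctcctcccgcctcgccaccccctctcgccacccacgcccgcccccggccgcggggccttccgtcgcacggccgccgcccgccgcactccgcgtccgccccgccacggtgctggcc
Gclm: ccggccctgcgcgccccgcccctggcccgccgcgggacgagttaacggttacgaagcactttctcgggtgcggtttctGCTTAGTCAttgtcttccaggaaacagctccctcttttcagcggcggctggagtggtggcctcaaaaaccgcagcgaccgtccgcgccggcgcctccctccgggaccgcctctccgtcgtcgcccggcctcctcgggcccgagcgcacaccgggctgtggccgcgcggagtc
Gpx2: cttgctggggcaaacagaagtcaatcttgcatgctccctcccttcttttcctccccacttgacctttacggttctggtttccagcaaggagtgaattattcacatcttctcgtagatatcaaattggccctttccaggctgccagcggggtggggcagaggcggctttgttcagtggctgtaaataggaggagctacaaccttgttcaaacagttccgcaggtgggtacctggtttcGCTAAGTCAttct

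The core lay on the gene strand in Gsta3 and Me1 (167 to 159 bases before the start of Me1) and on the opposite strand in Gclm (172 to 164 bases) and Gpx2 (13 to 5 bases). It was present in 10.1% of all 33469 rat promoters of this length. Among the 25 promoters found for the NRF2 genes that rose with PBO, 7 held it (28%). The numbers were 2 of 23 (8.7%) for the proteasome genes that rose, 1 of 10 for the CAR and PXR genes that rose and 4 of 19 (21.1%) for the amino acid genes that fell. The XRE core GCGTG (reverse CACGC) was present in 25.9% of all promoters in 13 of the 25 NRF2 promoters (52%), in 13 of the 23 proteasome promoters (56.5%), in 2 of the 10 CAR and PXR promoters and in 8 of the 19 amino acid promoters (42.1%). A match of letters is a description of these windows and was not measured as binding.

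The deposited values are log2 levels of 15866 probe sets, and a gene was read from 1 probe set, which left 10411 genes. A gene was called at an adjusted p under 0.05 with limma and the Benjamini-Hochberg method over all probe sets. All changes below are differences of log2 values, PBO minus control set 5, with the standard error (SE) of the fit and n = 3 arrays per group. Array medians of the 63 arrays lay between 7.421 and 7.51. The number of arrays limits the precision, and in whole liver fewer cells of a type and less RNA per cell cannot be told apart. The dosed group and its controls showed albumin (Alb), the defining hepatocyte product, at 14.96 to 15.03 and at 14.98 to 15.02. Both ranges lie near 15.11, the highest value of the series, and whether the signal was saturated was not tested.

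PBO changed the level of 1612 of the 10411 genes, 15.5% of those tested. Of these, 733 rose (7.04%) and 879 fell (8.44%). For 675 of the genes that rose and 808 of those that fell, the PBO arrays did not overlap the control arrays. Over all 10411 genes, called or not, 1266 lay above the controls without overlap and 1681 below. A lack of overlap between 3 and 3 arrays was therefore common and is not a call by itself. Most of these changes were small, with a median size of 0.42 among called genes. The fold criterion of the study, 2.5, was passed by 55 called genes (0.528%), of which 25 rose and 30 fell. The 15 leading rises included Gsta3, Aldh1a1, Ces2c and Abcc3, which handle foreign compounds, and also Sri, Anxa7 and Zdhhc2. The 15 leading falls included Scd, Oat, Bhmt and Gnmt, which are metabolic enzymes, and also Sgk1, Slc6a6 and Tsc22d1.

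**Figure D1:**
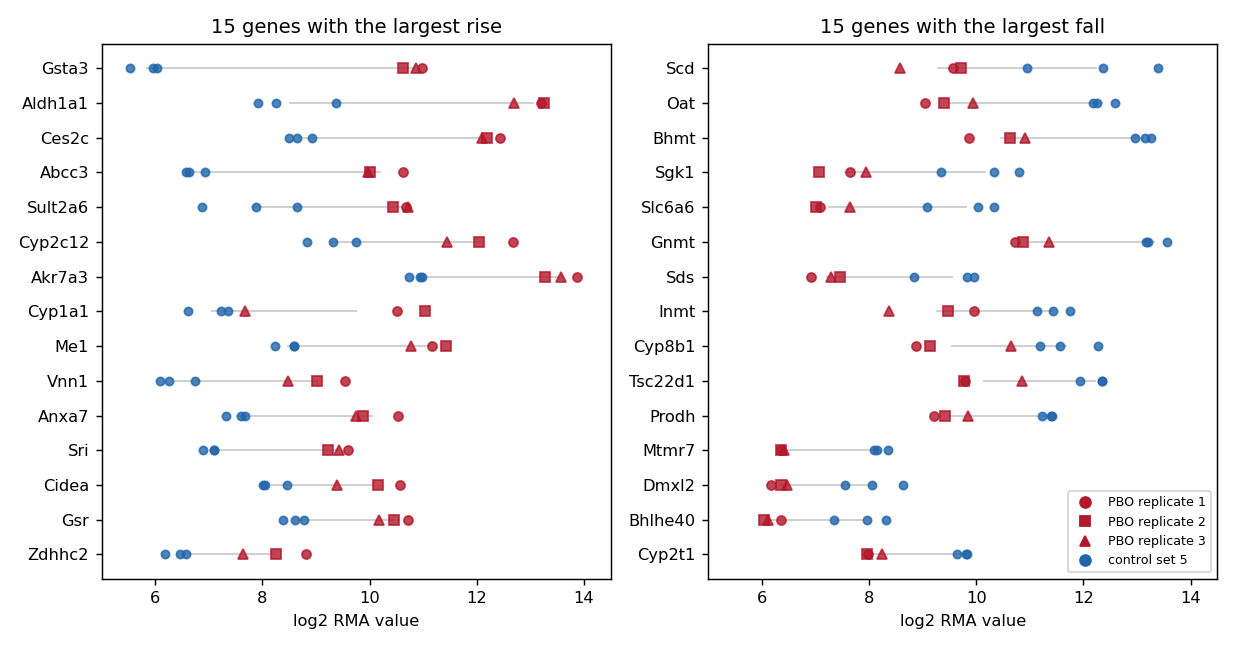
Log2 RMA values of the 15 genes with the largest rise (left) and the 15 with the largest fall (right) among called genes whose PBO and control arrays did not overlap, with 1 point per array and a grey line between the group means. Gsta3 stands farthest from its controls with PBO values from 10.62 to 10.97, and the points of PBO replicate 3 (triangles) lie nearest to the controls for Cyp1a1.

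Of the 21 genes measured that CAR and PXR are known to regulate, 11 rose with PBO and 0 fell (52.4%, against 15.5% of all genes), and the median change was 0.62 against -0.02 over all genes. The 10 that did not pass the test included Cyp2b12 (0.02), Cyp2a1 (0.09), Abcc2 (0.25), Cyp2a2 (-0.35) and Cyp3a9 (-0.59). Aldh1a1, which oxidises retinaldehyde and other aldehydes, had values of 13.19, 13.26 and 12.70 with PBO and 9.37, 7.92 and 8.25 in the controls. All 3 PBO arrays lay above all controls, and the rise was 4.53 ± 0.46 (SE) or 23.2-fold (adjusted p = 5.32e-10). Ces2c, a carboxylesterase that hydrolyses ester drugs, stood at 12.44, 12.19 and 12.10 against 8.93, 8.49 and 8.64 in the controls. The rise was 3.56 ± 0.20 (11.8-fold, adjusted p = 1.17e-18), again without overlap.

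The transport proteins of this list moved in the same direction. Abcc3, the pump that exports glucuronide and other organic anion conjugates from the hepatocyte into blood, was measured at 10.62, 10.00 and 9.97 with PBO. In the controls it was at 6.58, 6.92 and 6.62, and the rise was 3.49 ± 0.21 or 11.2-fold (adjusted p = 4.81e-17). Abcb1a, a P-glycoprotein that exports drugs, was at 7.15, 6.59 and 6.26 against 5.59, 5.56 and 5.49. It rose by 1.12 ± 0.18 (2.17-fold, adjusted p = 7.69e-06), and its highest PBO value was again that of replicate 1.

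Enzymes of this list that handle epoxides and conjugates rose less steeply. Ephx1, the microsomal epoxide hydrolase, was at 14.25, 14.10 and 14.22 with PBO and at 12.35, 12.47 and 12.28 in the controls, a rise of 1.82 ± 0.14 (3.53-fold, adjusted p = 8.82e-14). Ugt2b1, a glucuronosyltransferase, was at 13.04, 13.22 and 13.58 against 11.82, 11.14 and 11.49. Its rise was 1.8 ± 0.30 (3.47-fold, adjusted p = 1.54e-05), and groups did not overlap for either gene. Among the 9 genes of glucuronidation measured, 4 rose and 0 fell. The other 3 were Ugt2a1 (0.94 ± 0.14), Ugdh, which makes the UDP-glucuronic acid that the transferases use (0.67 ± 0.14), and Ugt2b35 (0.49 ± 0.10).

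Microsomal P450s take their electrons from the reductase Por and their heme from a pathway that starts with Alas1. Por was measured at 11.29, 11.57 and 10.80 with PBO against 10.14, 10.40 and 9.44 in the controls, a rise of 1.22 ± 0.23 (2.34-fold, adjusted p = 0.000131). Both groups varied widely, but the lowest PBO array was still above the highest control. Alas1 rose by 0.91 ± 0.25 (adjusted p = 0.0092), a call that was lost without control replicate 2 (0.75), PBO replicate 1 (0.81) or PBO replicate 2 (0.77) and with control set 1 (0.59) or set 2 (0.65). Of the 14 genes of electron supply and heme, 5 rose and 0 fell, and these included the heme-binding Pgrmc1 (0.51 ± 0.10, adjusted p = 0.000149) and cytochrome b5, Cyb5a (0.30), with Hmox1 as the fifth.

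P450s themselves were divided. Of the 26 measured in families 1 to 3, 4 rose and 5 fell, and the median change was -0.06. Cyp2c12, the P450 that is predominant in female rat liver, was at 12.67, 12.04 and 11.45 with PBO and at 9.31, 8.83 and 9.75 in the controls. This was a rise of 2.76 ± 0.42 (6.76-fold, adjusted p = 4.68e-06), without overlap. The arachidonic acid epoxygenase Cyp2j4 rose by 1.23 ± 0.19 (adjusted p = 3.49e-06) and the drug-metabolising Cyp2c6v1 by 0.48 ± 0.10 (adjusted p = 0.000604).

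In the opposite direction, Cyp2t1 was at 7.99, 7.96 and 8.24 with PBO and at 9.80, 9.64 and 9.82 in the controls. Its change of -1.69 ± 0.18 (3.22-fold lower, adjusted p = 2.18e-09) was the largest fall of a P450 in these families. The other P450s that fell were Cyp2c23 (-0.51), Cyp2f4 (-0.64), Cyp2d4 (-0.60) and Cyp2d3 (-0.53). The calls of Cyp2d3 (-0.20) and Cyp2d4 (-0.23) were lost against control set 6, and that of Cyp2f4 was lost against control sets 1 (-0.35), 2 (-0.36) and 6 (-0.36). Several P450s that are abundant in male rat liver or respond to PXR did not pass the test. The values were 0.21 for Cyp3a2 (adjusted p = 0.388), 0.47 for Cyp3a18 (adjusted p = 0.183) and -0.27 for the male-predominant Cyp2c11 (adjusted p = 0.193). Cyp2b1, Cyp2b2 and Cyp3a1 were not analysed here, because no probe set carried 1 of these symbols alone.

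Cyp1a1 was the only called gene of the 9 measured in the AHR list (11.1%, against 15.5% of all genes). Its values with PBO were 10.50, 11.04 and 7.67, and those of the controls were 6.61, 7.22 and 7.36. PBO replicates 1 and 2 were far above the controls and replicate 3 was close to them. The rise was 2.67 ± 0.46 (6.39-fold, adjusted p = 3.4e-05). The rise was 2.02 without PBO replicate 2 and 3.71 without PBO replicate 3, and with the spread taken only from these 6 arrays the call was lost (adjusted p = 0.0526). Cyp1a2, the constitutive liver P450 of the same family, had values of 12.86, 13.28 and 12.45 against 13.28, 13.60 and 13.45 (-0.58 ± 0.29, adjusted p = 0.197). Cyp1b1 (-0.06) and the receptor gene Ahr (0.30 ± 0.11, adjusted p = 0.0565) did not pass the test.

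**Figure D2:**
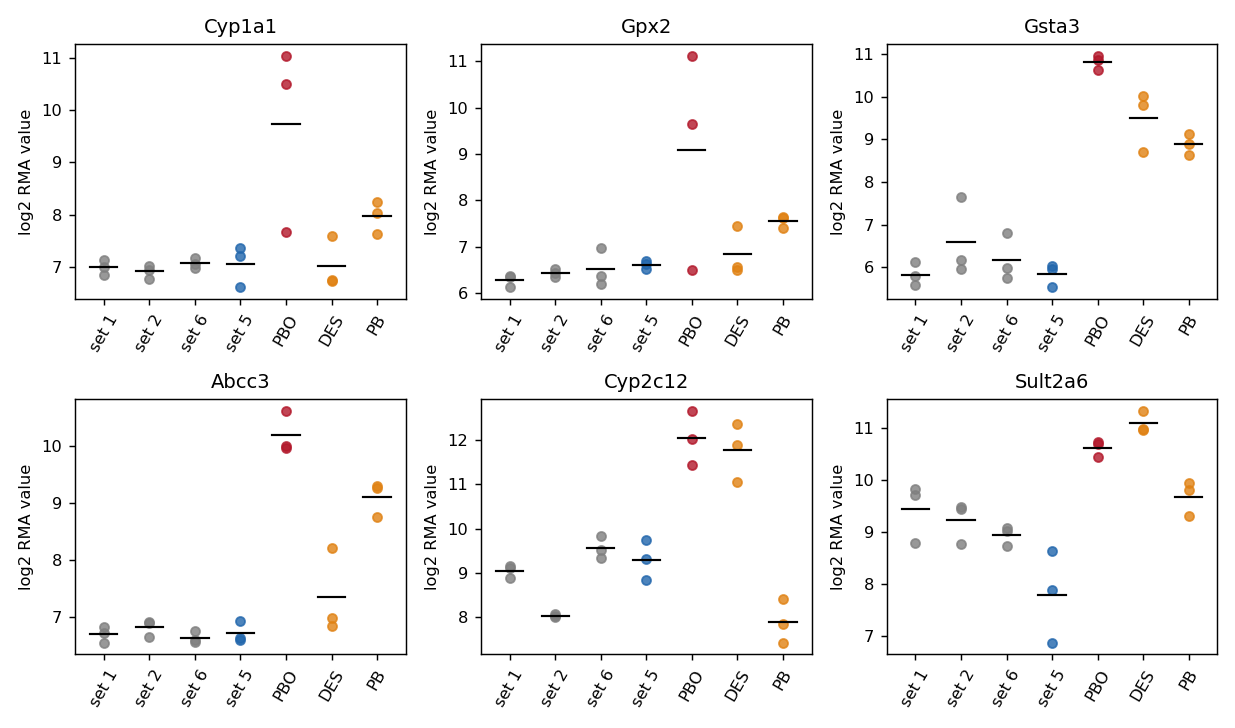
Log2 RMA values of 6 genes in the 4 methylcellulose control sets and in the PBO, DES and PB groups, with 1 point per array and a black line at the mean of 3. Cyp1a1 and Gpx2 vary widely within the PBO group, with replicate 3 at 7.67 and 6.50, whereas the PBO values of Abcc3 lie between 9.97 and 10.62 and above those of every other group shown.

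The NRF2 and redox list showed one of the broadest rises. Of its 34 measured genes, 25 rose and 0 fell (73.5%, against 15.5% of all genes), with a median change of 0.69. The list shares Abcc3, Ephx1, Gstm1 and Abcc2 with the CAR and PXR list, so the lists are not separate evidence. The median change of the list by array, relative to the mean of the controls, was 0.86, 0.63 and 0.49 in PBO replicates 1, 2 and 3. In the controls it lay between -0.12 and 0.06.

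Gsta3 had the largest rise of any gene under the rule for leading genes. It stood at 10.97, 10.62 and 10.87 with PBO and at 6.03, 5.52 and 5.95 in the controls, a rise of 4.99 ± 0.46 or 31.7-fold (adjusted p = 3.26e-11). The 3 PBO arrays lay close together. Its promoter, printed above, is 1 of 2 that RefSeq lists for the gene, and the second held no ARE core. Of the 20 glutathione S-transferases measured, 9 rose and 2 fell. Gsta4, which conjugates products of lipid peroxidation, was at 12.60, 12.37 and 12.03 against 11.23, 10.90 and 11.27 (1.2 ± 0.12, adjusted p = 3.41e-10). Smaller rises were measured for the microsomal Mgst2 (1.09 ± 0.11), for Gstt3 (0.83 ± 0.16) and for Gstm1 (0.62 ± 0.07). Gstz1, an enzyme of tyrosine breakdown, fell by 0.61 (SE 0.11, adjusted p = 3.4e-05), and the other gene that fell, Gstt2 (-0.28), had the opposite sign against control sets 1 (0.09), 2 (0.01) and 6 (0.11). Members of the alpha class are similar in sequence, and how far their transcripts share probes was not tested.

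Glutathione synthesis and recycling rose together in this list. Gsr, which reduces oxidised glutathione, was at 10.71, 10.45 and 10.17 with PBO and at 8.60, 8.77 and 8.39 in the controls. It rose by 1.86 ± 0.13 (3.62-fold, adjusted p = 9.54e-15). Gclm was at 10.99, 10.76 and 10.38 against 9.99, 9.26 and 9.35, and rose by 1.18 ± 0.19 (2.26-fold, adjusted p = 1.05e-05). The groups overlapped for neither gene. Gss, which completes the synthesis, rose by 0.48.

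Enzymes that make NADPH or reduce carbonyls ranged widely, from Me1 and Akr7a3 with large rises to Pgd (0.21), Taldo1 (0.08), Akr1b8 (0.39) and Cbr3 (0.01), which did not pass the test. Between them lay the rises of Tkt (0.71), Cbr1 (0.78), Akr7a2 (0.38) and Akr1a1 (0.33), the last of which was not called without control replicate 2 (0.26) or PBO replicate 1 (0.22). Me1 was at 11.16, 11.43 and 10.77 with PBO against 8.58, 8.24 and 8.59, a rise of 2.64 ± 0.28 (6.25-fold, adjusted p = 1.02e-09). Akr7a3, the aflatoxin aldehyde reductase, was at 13.86, 13.27 and 13.56 against 10.94, 10.73 and 10.98, a rise of 2.68 ± 0.26 (6.41-fold, adjusted p = 2.08e-10). The lowest PBO array exceeded the highest control by more than 2 for both genes. The thioredoxin system also rose, with Srxn1, the sulfiredoxin that repairs peroxiredoxins, at 9.74, 9.35 and 9.34 against 8.44, 8.24 and 8.65 (1.03 ± 0.15, adjusted p = 2.71e-06) and Txn1 at a change of 0.77 ± 0.09 (adjusted p = 5.59e-09).

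Other well known NRF2 targets were less uniform. Gpx2 was at 11.12, 9.65 and 6.50 with PBO and between 6.51 and 6.69 in the controls, so that replicate 3 was no higher than the controls. The change of 2.48 ± 0.53 (5.58-fold, adjusted p = 0.000573) became 1.46 without PBO replicate 1 and 3.78 without PBO replicate 3, and the call was lost with the spread of these 6 arrays alone (adjusted p = 0.143). Nqo1, the quinone reductase, was at 12.06, 11.69 and 9.70 with PBO and at 10.56, 9.78 and 10.31 in the controls. Its change of 0.93 ± 0.49 did not pass the test (adjusted p = 0.218), and replicate 3 was the lowest of all 6 arrays. Hmox1, the inducible heme oxygenase, rose by 0.77 ± 0.18 (adjusted p = 0.00206) against set 5, but was not called against control set 1 (0.23) or 6 (0.32). On the probe set used for each gene, the transcripts of the main sensors did not pass the test, with -0.06 for Nfe2l2, which encodes NRF2, 0.12 for Keap1, 0.09 for Nr1i2 (PXR) and -0.60 ± 0.31 for Nr1i3 (CAR, adjusted p = 0.207). A second, dimmer probe set of Keap1 was called, with a rise of 0.69 ± 0.11 (adjusted p = 1.12e-05). In the list of 23 sensors and liver transcription factors 1 gene rose, Hnf4a (0.68), and 2 fell, Foxa3 (-0.78) and the glucocorticoid receptor Nr3c1 (-0.65). The share called, 13%, was below the 15.5% of all genes. These 3 calls depended on the controls or on single arrays. Hnf4a was at 0.33, -0.14 and -0.06 against control sets 1, 2 and 6, Foxa3 was at 0.21 against set 1 and lost its call without any 1 array other than PBO replicate 3 (-0.84 to -0.64), and Nr3c1 lost its call without control replicate 1 (-0.61) or 2 (-0.66) or PBO replicate 1 (-0.61) or 2 (-0.59) and was at -0.01 on a dimmer probe set.

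**Figure D3:**
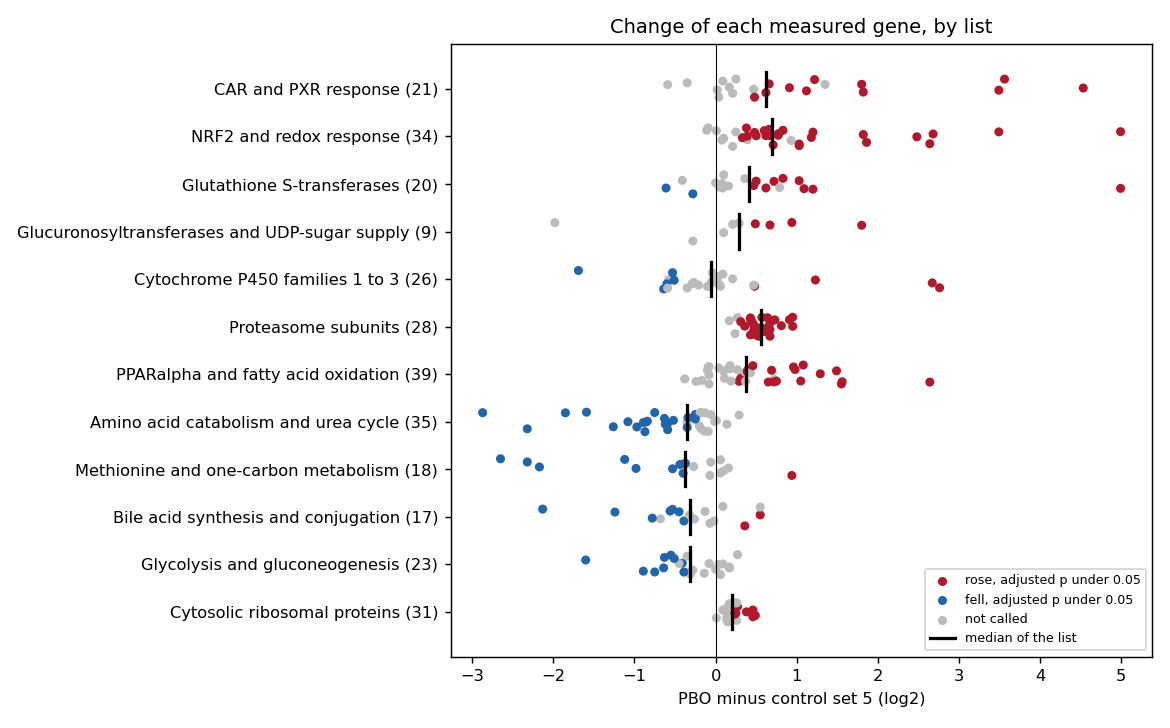
Change (PBO minus control set 5, log2) of each measured gene in the lists described, with 1 point per gene, red for a called rise, blue for a called fall, grey for genes that were not called, and a black bar at the median. The NRF2 and proteasome lists hold 25 called rises each and no called fall, and the amino acid list holds 22 called falls and no called rise.

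Proteasome subunits rose almost without exception. The proteasome degrades proteins tagged with ubiquitin, with alpha and beta subunits in its core and ATPase and other subunits in its cap. Of the 28 measured genes, 25 rose and 0 fell (89.3%), and all 28 changes were above 0, from 0.17 to 0.95, with a median of 0.56. Psma1 of the core was at 10.88, 11.07 and 10.80 with PBO against 10.40, 9.76 and 9.74 (0.95 ± 0.15, adjusted p = 4.85e-06). Psmb3, also of the core, was at 12.46, 12.19 and 11.79 against 11.29, 11.10 and 11.21 (0.95 ± 0.11, adjusted p = 2.59e-08). Psmd8 of the cap was at 11.78, 11.78 and 11.44 against 10.79, 10.87 and 10.62 (0.91 ± 0.10, adjusted p = 7.14e-09). No PBO array overlapped the controls in these 3 genes.

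The 3 subunits that were not called were Psma3 (0.17), Psmd1 (0.27) and Psmd7 (0.24). By array, the median change of the list was 0.68, 0.60 and 0.33 in PBO replicates 1, 2 and 3, against -0.08 to 0.13 in the controls. Psmb8, an interferon-inducible subunit that was placed in the interferon list, went the other way, at 9.52, 9.33 and 9.71 against 10.79, 9.99 and 10.60. It fell by 0.94 (SE 0.25, adjusted p = 0.00582), and the call was lost without control replicate 1 (-0.78, adjusted p = 0.0512).

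**Figure D4:**
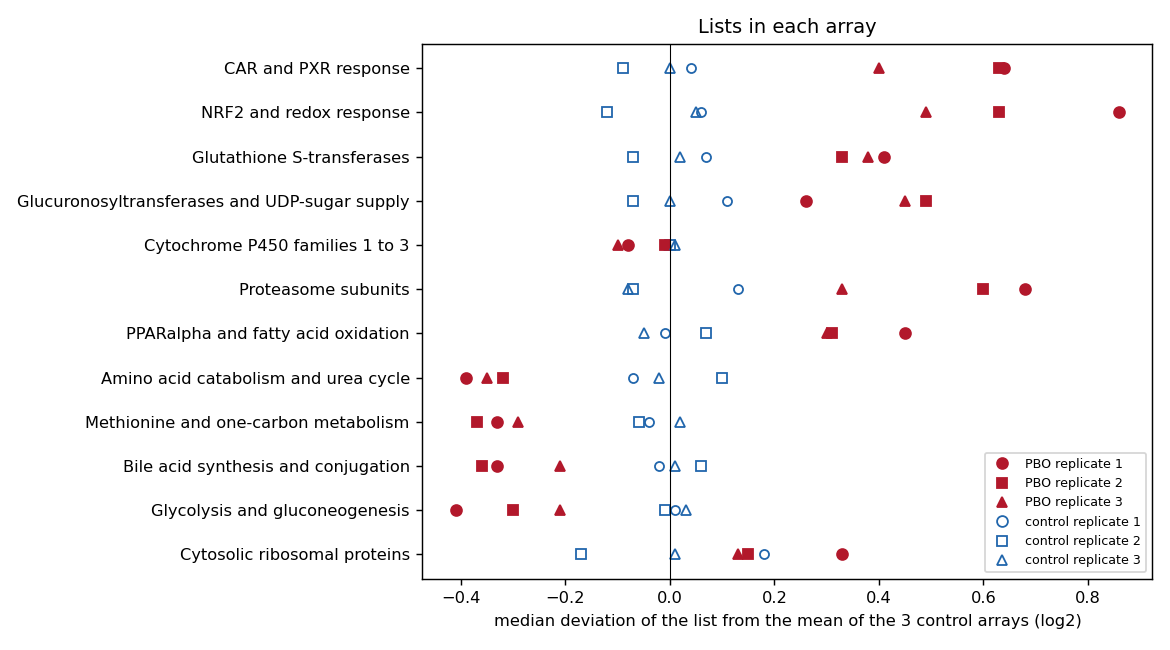
Median deviation of each list from the mean of the 3 control arrays (log2), with filled red symbols for PBO replicates, open blue symbols for control replicates and 1 symbol shape per replicate number, which does not pair arrays. PBO replicate 3 (triangles) is the lowest of the 3 for the NRF2 list (0.49) and the proteasome list (0.33), and the PBO values of the ribosomal protein list (0.13 to 0.33) overlap those of the controls (-0.17 to 0.18).

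Genes of PPARalpha and fatty acid oxidation rose in part. PPARalpha is the receptor that induces peroxisomal and mitochondrial fatty acid oxidation in rodent liver. Of 39 measured, 19 rose and 0 fell, and the median change was 0.37. Vnn1, the pantetheinase vanin, was at 9.53, 9.02 and 8.48 with PBO against 6.74, 6.26 and 6.09 (2.64 ± 0.32, 6.25-fold, adjusted p = 3.17e-08). Eci1, an isomerase needed to oxidise unsaturated fatty acids, was at 13.04, 12.93 and 12.43 against 11.27, 11.47 and 11.01 (1.55 ± 0.16, adjusted p = 8.34e-10). All PBO values exceeded all controls for both, while a much dimmer second probe set of Eci1 was at 0.14 and was not called.

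Decr1, which acts on the same class of fatty acids, rose by 1.29 ± 0.16 and the thioesterase Acot4 by 1.56 ± 0.29. Cpt1a, which admits fatty acids to the mitochondrion (-0.38), Acadm (-0.08), Pdk4 (-0.17) and the inducible Cyp4a1 (0.37) did not pass the test. The number of rises fell to 12 with the spread of the 6 arrays alone. Of this list, 6 genes were higher in control set 5 than in the other methylcellulose sets and 0 were lower. The number of rises was 23, 23 and 25 with control sets 1, 2 and 6 and 25 with all 12 methylcellulose arrays.

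Amino acid breakdown and the urea cycle fell with PBO. Of the 35 genes measured, 22 fell and 0 rose (62.9%), with a median of -0.35. The list median was -0.39, -0.32 and -0.35 in the 3 PBO arrays and between -0.07 and 0.10 in the controls. Oat, which routes ornithine to glutamate, was at 9.05, 9.40 and 9.94 with PBO and at 12.26, 12.58 and 12.17 in the controls. The change was -2.87 ± 0.37 (7.31-fold lower, adjusted p = 9.95e-08), and the groups were more than 2 apart.

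Sds, the serine dehydratase that feeds gluconeogenesis, was at 6.91, 7.45 and 7.29 against 8.84, 9.82 and 9.95 (-2.32 ± 0.39, adjusted p = 1.89e-05). Prodh, which oxidises proline, was at 9.22, 9.41 and 9.85 against 11.23, 11.42 and 11.40 (-1.85 ± 0.19, adjusted p = 9.02e-10). Neither gene overlapped between the groups, but a much dimmer second probe set of Prodh was at -0.06 and was not called. Histidine breakdown (Hal, -1.59 ± 0.21), glutamine breakdown (Gls2, -1.26 ± 0.16) and glyoxylate transamination (Agxt, -1.08) fell as well. In the urea cycle, Cps1, its first enzyme, was at 11.76, 12.05 and 12.50 against 12.80, 13.22 and 12.82 (-0.84 ± 0.12, adjusted p = 5.71e-07). Ass1 (-0.75 ± 0.12) and Asl (-0.59) fell too, while Otc (-0.13) and Arg1 (0.01) did not pass the test.

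Methionine and methyl group metabolism was also lower. Of 18 genes measured, 10 fell and 1 rose, with a median of -0.38. Bhmt, which remethylates homocysteine with betaine, was at 9.87, 10.63 and 10.91 with PBO and at 13.14, 12.96 and 13.26 in the controls, a change of -2.65 ± 0.27 (6.28-fold lower, adjusted p = 5.29e-10). Gnmt, which consumes excess S-adenosylmethionine, was at 10.73, 10.88 and 11.35 against 13.16, 13.20 and 13.56, a change of -2.32 ± 0.20 (5.00-fold lower, adjusted p = 8.84e-12). Every PBO array was below every control for both, and replicate 1 was the lowest.

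Further down this pathway, Dmgdh, which demethylates dimethylglycine, changed by -1.12 ± 0.18. Inmt, a methyltransferase, was at 9.96, 9.47 and 8.37 against 11.75, 11.13 and 11.43 (-2.17 ± 0.54, adjusted p = 0.00323) and lost its call against control set 6 (-1.43). The 1 gene of the list that rose was Mat2a, the extrahepatic form of S-adenosylmethionine synthetase (0.94 ± 0.22, adjusted p = 0.00158), and it was called neither against control set 1 (0.31) nor on its other probe set (0.18). The liver form Mat1a fell by 0.44. Against control set 6 the list held 6 falls and 3 rises.

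Falls were also found among genes of glucose metabolism, fatty acid synthesis and bile acid synthesis, while the calls in cholesterol synthesis depended on the controls. Of the 23 genes of glycolysis and gluconeogenesis, 9 fell and 0 rose. Against control sets 1, 2 and 6, 9, 8 and 5 fell and 1, 3 and 3 rose. With all 12 methylcellulose arrays 9 fell and 2 rose. In control set 5 itself, 3 genes of this list were higher than in the other methylcellulose sets and 0 were lower. Pklr, the liver pyruvate kinase, changed by -1.60 ± 0.26 (adjusted p = 1.13e-05), and the gluconeogenic enzymes Pc and Fbp1 by -0.75 ± 0.11 and -0.63 ± 0.08. In fatty acid synthesis 7 of 24 fell and 3 rose, namely Me1, Dgat1 and Elovl1, and 4 fell without control replicate 1, control replicate 2 or PBO replicate 2. Scd, the stearoyl-CoA desaturase, was at 9.57, 9.72 and 8.57 with PBO and at 12.36, 10.95 and 13.39 in the controls. The change was -2.94 ± 0.67 (7.69-fold lower, adjusted p = 0.00145), the controls themselves spanning more than 2. Of the 20 cholesterol synthesis genes 4 rose (Idi1, Acat2, Fdps and Sc5d) and 1 fell (Insig2), with a median of 0.13. The number of rises in that list was 1 without control replicate 2 or 3, 2 without any 1 of the PBO arrays and 6 without control replicate 1. It was 8, 2 and 7 with control sets 1, 2 and 6 and 10 with all 12 methylcellulose arrays. In bile acid synthesis 7 of 17 fell and 2 rose (Akr1d1 and Akr1c14), and 4 fell against control set 1. Cyp8b1, which sets the share of cholic acid, was at 8.87, 9.13 and 10.65 against 11.19, 12.28 and 11.57 (-2.13 ± 0.42, adjusted p = 0.000219) and was not called against control set 1 (-1.04).

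Sulfation showed both directions. Sult2a6, a hydroxysteroid sulfotransferase, was at 10.68, 10.43 and 10.72 with PBO and at 8.64, 7.88 and 6.88 in the controls, a rise of 2.81 ± 0.39 (7.01-fold, adjusted p = 5.18e-07). Control set 5 was itself low for this gene, with a difference of -1.40 from the other methylcellulose sets (adjusted p = 0.0046). Against control sets 1, 2 and 6 the rise was 1.17, 1.39 and 1.67. Sult1a1, the phenol sulfotransferase (-1.24 ± 0.14, adjusted p = 3.1e-09), and Papss2, which makes the sulfate donor (-1.21 ± 0.15, adjusted p = 4.83e-08), fell. Of the 13 genes of this list 2 rose, the second being Sult1b1, and 4 fell, with Sult1c2a and Sult1c3 besides those named.

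Outside the lists described so far, the leading genes included signalling and transport genes. Sgk1, a kinase induced by glucocorticoids, was at 7.65, 7.06 and 7.94 with PBO against 10.33, 9.34 and 10.79 (-2.61 ± 0.47, adjusted p = 5.71e-05), and was not called against control set 2 (-1.30). Slc6a6, the taurine transporter, was at 7.09, 7.01 and 7.65 against 10.03, 9.08 and 10.33 (-2.56 ± 0.47, adjusted p = 8.83e-05). Tsc22d1, a leucine zipper protein, was at 9.79, 9.77 and 10.85 against 12.35, 12.34 and 11.94 (-2.07 ± 0.32, adjusted p = 6.24e-06). In these 3 genes all PBO arrays were below all controls. Sri, the calcium-binding sorcin, rose by 2.38 ± 0.26. Anxa7, an annexin, rose by 2.52 ± 0.25 on its brighter probe set and by 0.36 on its other one, so the size of this rise depended on the probe set. The other probe set of Slc6a6 also gave a smaller change (-1.07).

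Of the 18 periportal hepatocyte genes 9 fell and 0 rose, and of the 17 pericentral ones 5 fell and 1 rose, Aldh1a1. All 9 periportal falls (Sds, Hal, Gls2, Pck1, Cps1, Ass1, Cyp2f4, Fbp1 and Asl) belong to lists described above and are counted there too. Of 28 genes of endoplasmic reticulum stress and the ATF4 response, 3 rose (Phgdh, Psat1 and Asns) and 2 fell (Atf5 and Pdia4). The share called was 17.9%, against 15.5% of all genes, and the median was 0.05. Phgdh, which starts serine synthesis, rose by 1.15 ± 0.19 (adjusted p = 1.98e-05). In the list of 26 complement and coagulation genes, 12 fell and 1 rose (Masp2), with a median of -0.19. Of the 41 cell cycle genes, 3 rose (Pcna, Mcm3 and Mcm5) and 0 fell (7.32%, against 7.04% of all genes called higher). The number was 7 without PBO replicate 3, 1 without PBO replicate 2, 2 without control replicate 2 or PBO replicate 1, 10 with control set 2 and 1 with control set 6. The replication factor Mcm5 was at 7.77, 7.85 and 7.19 with PBO and between 7.04 and 7.16 in the controls (0.52 ± 0.11, adjusted p = 0.000976), and it was called neither against control set 6 (0.23) nor with the spread of the 6 arrays alone. The median of this list was 0.19.

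Secreted liver proteins and stress genes moved in smaller numbers. Of 25 acute phase genes 8 fell and 0 rose, and 4 fell without control replicate 1 or PBO replicate 1. Of 25 interferon and antigen presentation genes 4 fell and 0 rose (16%, close to the 15.5% of all genes). These were Usp18, Psmb8, Lgals3bp and Stat2. The number was 2 without control replicate 1 or PBO replicate 2 and 7 without control replicate 2. Usp18, an interferon-induced protease, changed by -1.0 ± 0.22 and was called against none of the control sets 1 (-0.50), 2 (-0.33) and 6 (-0.61). Of 19 apolipoprotein and lipid export genes 8 fell (4 without control replicate 1) and 3 rose (Cidea, Apoa1 and Scarb1). Cidea, a lipid droplet protein, was at 10.57, 10.16 and 9.39 with PBO against 8.01, 8.05 and 8.46 in the controls. Of 21 heat shock and chaperone genes 8 rose and 0 fell, a number that was 3 without PBO replicate 1, 4 without control replicate 2, 5 without control replicate 3 and 2 with control set 1. In the growth hormone axis 3 of 20 genes fell and 0 rose (15%, close to the 15.5% of all genes). These were the receptor Ghr (-0.98 ± 0.17) and the binding proteins Igfbp3 (-0.99 ± 0.21) and Igfals (-0.93 ± 0.23). A dimmer probe set was not called for Ghr (0.21, of the opposite sign) or for Igfbp3 (-0.18).

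In the ribosomal protein list 9 of 31 genes rose and 0 fell, with all 31 changes above 0. The list median was 0.33, 0.15 and 0.13 in the PBO arrays and 0.18, -0.17 and 0.01 in the controls, so the groups overlapped. The number of rises was 2 without control replicate 2, 2 without PBO replicate 1, 15 without control replicate 1 and 1 with the spread of the 6 arrays alone. It was 2, 1 and 1 with control sets 1, 2 and 6. In control set 5, 6 genes of this list were lower than in the other methylcellulose sets.

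Markers of other liver cells were mostly not called against set 5, but their counts depended on the controls. Of the macrophage (10), lymphocyte (16), neutrophil (6), pancreatic acinar (11) and adipocyte (5) markers measured, 0 were called. The summed linear level of the macrophage markers was 5974 to 7623 with PBO and 6986 to 8973 in the controls, and that of the lymphocyte markers 2102 to 2610 and 2864 to 3139. The ranges overlapped for the macrophage markers, and for the lymphocyte markers all PBO arrays were lower. Against control set 1, control set 6 and all 12 methylcellulose arrays, 6, 5 and 6 of the macrophage markers fell. Of the 8 endothelial markers 1 fell (Kdr), with a sum of 2185 to 2877 against 2566 to 3480. Of the 6 erythroid markers 1 fell (Ahsp), with a sum of 12538 to 17480 against 10938 to 15466. The shares called in these lists, 12.5% and 16.7%, were close to the 15.5% of all genes. Of the 22 stellate cell and matrix markers 3 fell (Pdgfrb, Fn1 and Col6a1) and 0 rose (13.6%, also close to that share). There were 7 falls against control set 1 and 1 against control set 6, without control replicate 1 or without PBO replicate 1. The sum of the stellate list was 13460 to 14445 against 14871 to 17134. Of the 12 biliary and progenitor markers, 2 rose and 1 fell (Afp), and the sum was 7612 to 8590 against 5423 to 6229. The 2 that rose were the keratins Krt8 (0.94 ± 0.16) and Krt18, which hepatocytes also express. Of the 12 hepatocyte markers 2 rose (Hnf4a and Apoa1) and 3 fell (Cps1, Asgr1 and F2), and the sum was 127568 to 133588 against 130976 to 138568. The part of these shifts in the changes of the gene lists was not tested.

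The change with PBO was then set against the change with PB, each relative to its own controls. Because PB was given for 14 days and at another dose than PBO, the difference combines compound, dose and duration. Of the 10411 genes, 755 had a different change (7.25%), 355 being higher with PBO (3.41%) and 400 lower (3.84%). Counted in probe sets the number was 1062, and 498 without replicate 1 of control set 6. PB alone raised 104 genes (0.999%) and lowered 53 (0.509%). In the CAR and PXR list, 11 genes rose with PBO and 11 with PB. The changes differed for 3 of its 21 genes, all larger with PBO. Abcc3 rose by 3.49 with PBO and by 2.48 with PB (difference 1.01 ± 0.30, adjusted p = 0.0313). Ephx1 rose by 1.82 and 1.18 (difference 0.64 ± 0.20, adjusted p = 0.0382). Abcb1a changed by 1.12 and 0.30, with a difference of 0.82 ± 0.25 (adjusted p = 0.0371).

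For the strongest rises of this list no difference was called. Ces2c rose by 3.56 with PBO and by 3.75 with PB (difference -0.19 ± 0.28, adjusted p = 0.774). Aldh1a1 rose by 4.53 and 4.32 (difference 0.21 ± 0.66, adjusted p = 0.909). For Aldh1a1 the error is so large that differences of the size of the SE cannot be told from 0. Gsta3 rose more with PBO (4.99 against 2.71, adjusted p of the difference 0.0225).

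The NRF2 list differed more. The number of its genes that rose was 25 with PBO and 8 with PB, and 15 of the 34 changes were larger with PBO while 0 were smaller. Me1 rose by 2.64 with PBO, whereas its PB change of 0.42 was not called (difference 2.23 ± 0.39, adjusted p = 0.000329). Gsr rose by 1.86 and 0.57 (difference 1.29 ± 0.19, adjusted p = 1.84e-05), and Gclm was at 1.18 and -0.07 (difference 1.25 ± 0.27, adjusted p = 0.0027). Of the 28 proteasome genes, 18 changed more upward with PBO and 0 less, and PB alone raised 1 of them. Psmb3 stood at 0.95 with PBO and 0.07 with PB (difference 0.88 ± 0.16, adjusted p = 0.000488).

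The falls were likewise larger with PBO. In the amino acid list 11 of 35 changes were lower with PBO and 1 was higher, and in the methionine list 6 of 18 were lower. Bhmt changed by -2.65 with PBO and by -0.29 with PB (difference -2.36 ± 0.38, adjusted p = 0.000101), and Gnmt by -2.32 and -0.27 (difference -2.05 ± 0.29, adjusted p = 1.16e-05). Prodh changed by -1.85 and -0.08. Cyp2c12 changed by 2.76 with PBO and by -1.68 with PB (adjusted p = 0.0288), with a difference of 4.44 ± 0.60 (adjusted p = 8.72e-06). Its PB values of 7.83, 7.41 and 8.40 were below those of control set 6 (9.84, 9.33 and 9.51). They were also below those of control sets 1 (8.88, 9.15 and 9.11) and 5 (9.31, 8.83 and 9.75). They were near those of control set 2 (8.01, 7.99 and 8.07), so the size of the negative change with PB depends on the control set. Eci1 was at 1.55 and -0.37 (difference 1.92 ± 0.23, adjusted p = 4.98e-07).

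**Figure D5:**
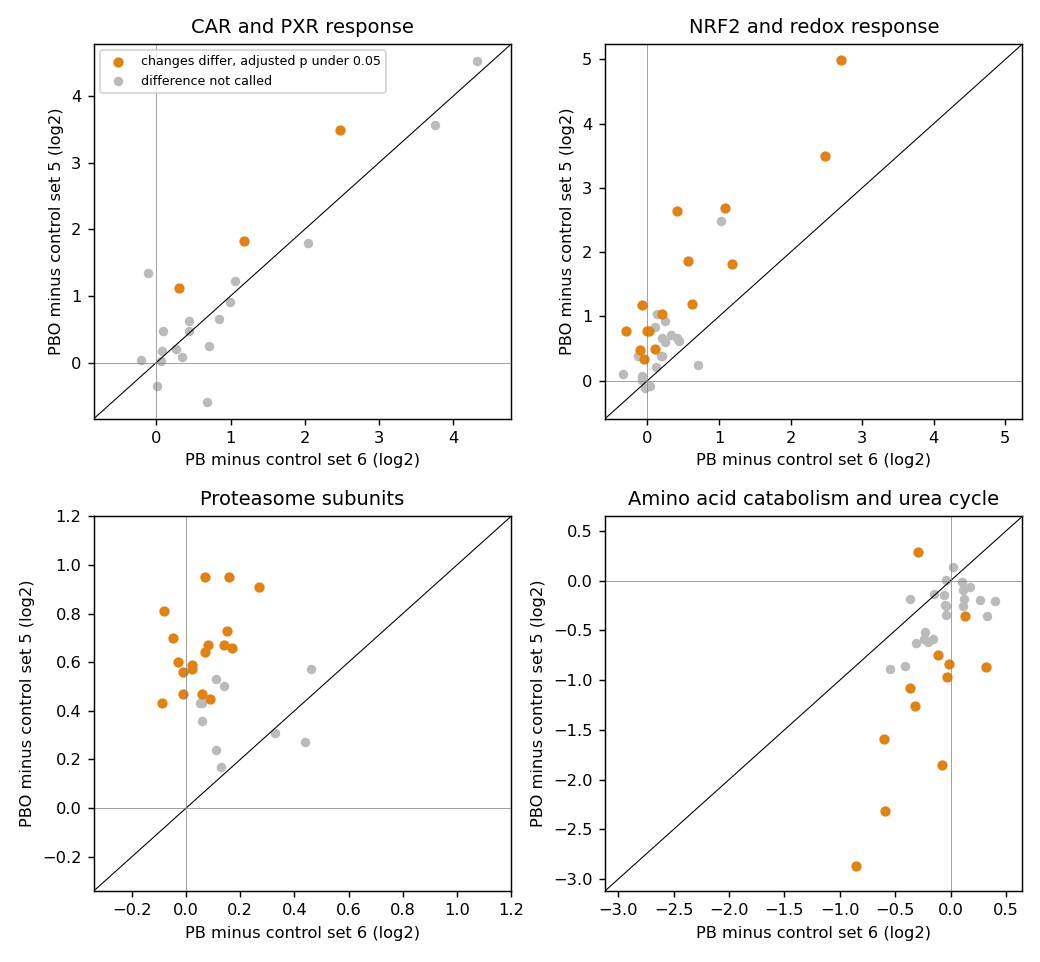
Change with PBO against control set 5 (vertical axis, log2) and with PB against control set 6 (horizontal axis, log2) for each measured gene of 4 lists, with the diagonal of equal change and orange points where the changes differed at an adjusted p under 0.05. In the CAR and PXR panel 3 points are orange, while the NRF2 panel has 15 and the proteasome panel 18, all above the diagonal.

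DES was given for the same 3 days and shares control set 5, so PBO and DES were compared directly. A total of 1415 genes differed (13.6%), of which 814 were higher with PBO (7.82%) and 601 lower (5.77%). Their doses, 1200 and 10 mg/kg/d, were not matched. Proteasome genes were higher with PBO in 26 of 28, NRF2 genes in 21 of 34 and PPARalpha genes in 19 of 39, with 0 lower in each list. CAR and PXR genes were higher in 13 of 21 and lower in 1. The difference was 3.03 for Ces2c (adjusted p = 7.15e-17), 2.86 for Abcc3 (adjusted p = 1.15e-14) and 2.75 for Vnn1 (adjusted p = 6.49e-09). In the other direction, Sds was lower with PBO (difference -4.04, adjusted p = 3.74e-11), its own change against set 5 being -2.32 with PBO and 1.71 with DES. Ribosomal protein genes were lower with PBO than with DES in 27 of 31, where DES itself had raised 30 and PBO 9 against set 5.

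Some large changes were found with both compounds against the controls they share. Cyp2c12 stood at 2.76 with PBO and 2.47 with DES, Sult2a6 at 2.81 and 3.29, and Gsta3 at 4.99 and 3.67. The direct difference was 0.29 for Cyp2c12 (adjusted p = 0.784) and 1.32 for Gsta3 (adjusted p = 0.0494).

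Against the mean change of the 12 compounds that do not use control set 5, PBO differed in 769 genes (7.39%), with 348 higher (3.34%) and 421 lower (4.04%). In probe sets the number was 1102, and it was 677 without PBO replicate 1 and 669 without PBO replicate 2. The proteasome list was higher in 18 of 28, the NRF2 list in 17 of 34 and the CAR and PXR list in 8 of 21. The amino acid list was lower in 16 of 35. Among single genes, Abcc3 exceeded the mean by 2.78 (adjusted p = 1.7e-11) and Bhmt was below it (difference -2.44, adjusted p = 2.5e-07). These 12 compounds differ in dose (mg/kg/d in brackets), duration and vehicle. Acetamide (3000), cefuroxime (250), cyproterone acetate (100), dehydroepiandrosterone (600), methylcarbamate (400), nifedipine (3) and PB were given for 14 days. C.I. Direct Black (146), dimethylnitrosamine (4), methapyrilene (60) and thioacetamide (19.2) were given for 7 days. Wy-14643 (60) is the only one of them that was also given for 3 days. C.I. Direct Black, dimethylnitrosamine and cyproterone acetate had corn oil controls, so the mean mixes vehicles.

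Control set 5 was compared with the mean of the other methylcellulose sets, since each change above depends on it. A total of 565 genes differed (5.43%), with 403 higher in set 5 (3.87%) and 162 lower (1.56%). In probe sets the number was 894, and 367 without replicate 2 of set 5. No gene of the NRF2 or proteasome lists was among them. In the amino acid list 2 genes were higher and 0 lower. The glycogen-targeting Ppp1r3b was lower in set 5 (difference -1.02, adjusted p = 6.41e-05). With each of the control sets 1, 2 and 6 in place of set 5, with all 12 methylcellulose arrays, and without any 1 of the 6 arrays, the number of rises in the NRF2 list stayed between 19 and 26 and in the proteasome list between 24 and 27, and the number of falls in the amino acid list between 16 and 22. Against control sets 1, 2 and 6, 2, 1 and 1 genes of the amino acid list rose. Control sets 1, 2 and 6 also carry the label of 14 days. Exchanging the sets therefore leaves duration and treatment as hard to tell apart as with set 5. With the spread of the 6 arrays alone, 19 genes of the NRF2 list and 21 of the proteasome list rose, and 18 of the amino acid list fell.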

How the data were processed

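RNA of 63 rat livers was measured on Affymetrix RAE230A arrays. The authors normalised the arrays by robust multi-array average (RMA, affy package), and the deposited values are log2 expression levels, which ran from 3.96 to 15.11 and were used without further normalisation. Of the 15866 probe sets, 12783 carried 1 symbol in the supplied array annotation, 312 several and 2771 none. The brightest of a gene's probe sets, averaged across the series, stood for the gene, and probe sets with several symbols named no gene.

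Group means (21 in all) were estimated with limma 3.58.1 (R 4.3.3, 42 residual and 4.81 prior degrees of freedom). Benjamini-Hochberg adjustment covered the whole array, and an adjusted p under 0.05 was a call. P-values rest on the spread within groups, pooled over the 21 groups of all 63 arrays, and not on the spread of the 6 compared arrays alone. The 3 animals of each treated group were chosen by histopathology, not drawn at random. The study does not say how the control animals were chosen.

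Leading genes were the 15 highest and 15 lowest called genes without overlap between groups, and up to 6 called members were named per list beyond the lists of foreign compound metabolism, whose members could all be named. The other contrasts named their 8 highest and 8 lowest called genes, the control contrast 5 each. Dgat1, Elovl1, Masp2, Scarb1, Otc, Arg1, Psma3, Psmd1, Psmd7, Acadm, Pdk4, Cyp4a1, Asl, Mat1a and Alb were named after their values were seen. The comparison and the 49 gene lists were chosen with earlier results of these data known. The alternatives were other control sets, array weights, a trended and robust prior, median centring, a filter on dim probe sets, Holm adjustment, a test against a fold of 1.2, the 6 arrays alone and leaving out single arrays. The procedure was tested on simulated data. Promoters came from RefSeq on GRCr8.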

Additional observations from a re-analysis of the deposited data

How the results depend on the processing

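Against control set 5, 2299 probe sets were called (1116 higher and 1183 lower). The number was 1318 with the spread of the 6 arrays alone, 405 after Holm adjustment and 368 in the test against a fold of 1.2, and leaving out single arrays gave 1576 to 2121. With control sets 1, 2 and 6 and with all 12 methylcellulose arrays it was 2203, 1978, 1944 and 2308. Changes of at least 2.5-fold numbered 72. The difference from PB was called for 1062 probe sets, 669 with array weights and 498 to 1340 without single arrays, the lowest without replicate 1 of control set 6, whose array weight was 0.306. The difference from the mean of 12 compounds was called for 1102 probe sets and for 669 to 1037 without single arrays, and that of control set 5 from the other sets for 894, for 431 with array weights and for 367 to 933 without single arrays.

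No paired analysis was possible for PBO against control set 5 because the numbers in the titles of these groups are not shared. For PBO against DES, whose titles share numbers that nothing ties to animals or batches, a replicate block gave 1249 called probe sets against 1936 without it. Signs turned against other control sets for Hnf4a (-0.14 with set 2 and -0.061 with set 6), Foxa3 (0.21 with set 1) and Gstt2 (0.085, 0.006 and 0.11 with sets 1, 2 and 6). The cause was not tested.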
